A study of Homo sapiens with 8 samples.

Results

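The Polycomb group genes described here are EZH1, EZH2, EED, SUZ12, JARID2, CBX2, CBX7, CBX8 and BMI1, 9 genes taken by symbol from the 59050 gene symbols counted in each tumour. Bulk RNA-seq was done on 8 tumours, xenografts in mice of H2122, a human lung adenocarcinoma line established in culture. The 4 parental tumours carried the line as it is, labelled wild type, and the 4 knockout tumours came from H2122 cells in which SMARCA4 was knocked out. All 8 received vehicle. The sources used here give neither the number of knockout clones, nor the strain, age or remaining immune cells of the host mice, nor whether tumours of a group came from separate animals, so p-values measure the spread between these samples. All 9 genes had enough reads to be tested, with 115 to 3105 counts in a library.

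Polycomb proteins keep genes silent through chromatin. Polycomb repressive complex 2 (PRC2) methylates lysine 27 of histone H3, and Polycomb repressive complex 1 (PRC1) binds that mark through its chromobox proteins, ubiquitinates histone H2A and compacts chromatin. SWI/SNF complexes, whose ATPase is encoded by SMARCA4 or its paralog SMARCA2, remodel nucleosomes and can displace Polycomb complexes, and the balance between the groups is known to shape the outcome when a SWI/SNF subunit is lost in cancer. Here the question was whether the transcripts of the opposing machinery differed between tumours with and without SMARCA4.

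Libraries held 19785922 to 23191698 gene counts, with overlapping depth in the 2 groups, and mitochondrial genes took 4.74% to 9.47% of the counts in parental and 8.57% to 10.9% in knockout libraries. SMARCA4, the targeted gene, was at 220, 229, 198 and 235 CPM (gene counts scaled to a common library size, with TMM factors) in parental replicates 1 to 4 and at 29.6, 26.2, 22.3 and 31.1 CPM in knockout replicates 1 to 4, so the targeted transcript separated the groups as labelled. Epithelial markers were abundant in every tumour, with a summed level of 7506 to 8815 CPM over 10 genes in the parental group and 6600 to 7973 CPM in the knockout group, and 2 of the 8 tested, KRT7 and KRT19, were called lower. The lung lineage factor NKX2-1 had 0 counts in every library, a result that up to 3 counts could give, and the surfactant gene SFTPB had too few reads to be tested. Over all 16219 genes tested, 27.04% were called changed at an adjusted p under 0.05 by edgeR's quasi-likelihood test with Benjamini-Hochberg adjustment, 13.0% higher and 14.1% lower in knockout tumours.

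Of the 9 Polycomb genes, EZH1 was higher and CBX2 was lower in knockout tumours, and the other 7 did not pass the test. These 2 calls make 22.2% of the 9 genes, against the 27.04% called among all genes tested, so the genes as a group were not called more often than others. The median log2 fold change of the 9 was 0.10, against 0.00 for all genes tested, and their median absolute log2 fold change was 0.22, against 0.25. The knockout and parental values did not overlap for EZH1, EED, CBX2 and CBX8, which is 44.4% of the genes against 29.3% of all genes tested.

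**Figure D1:**
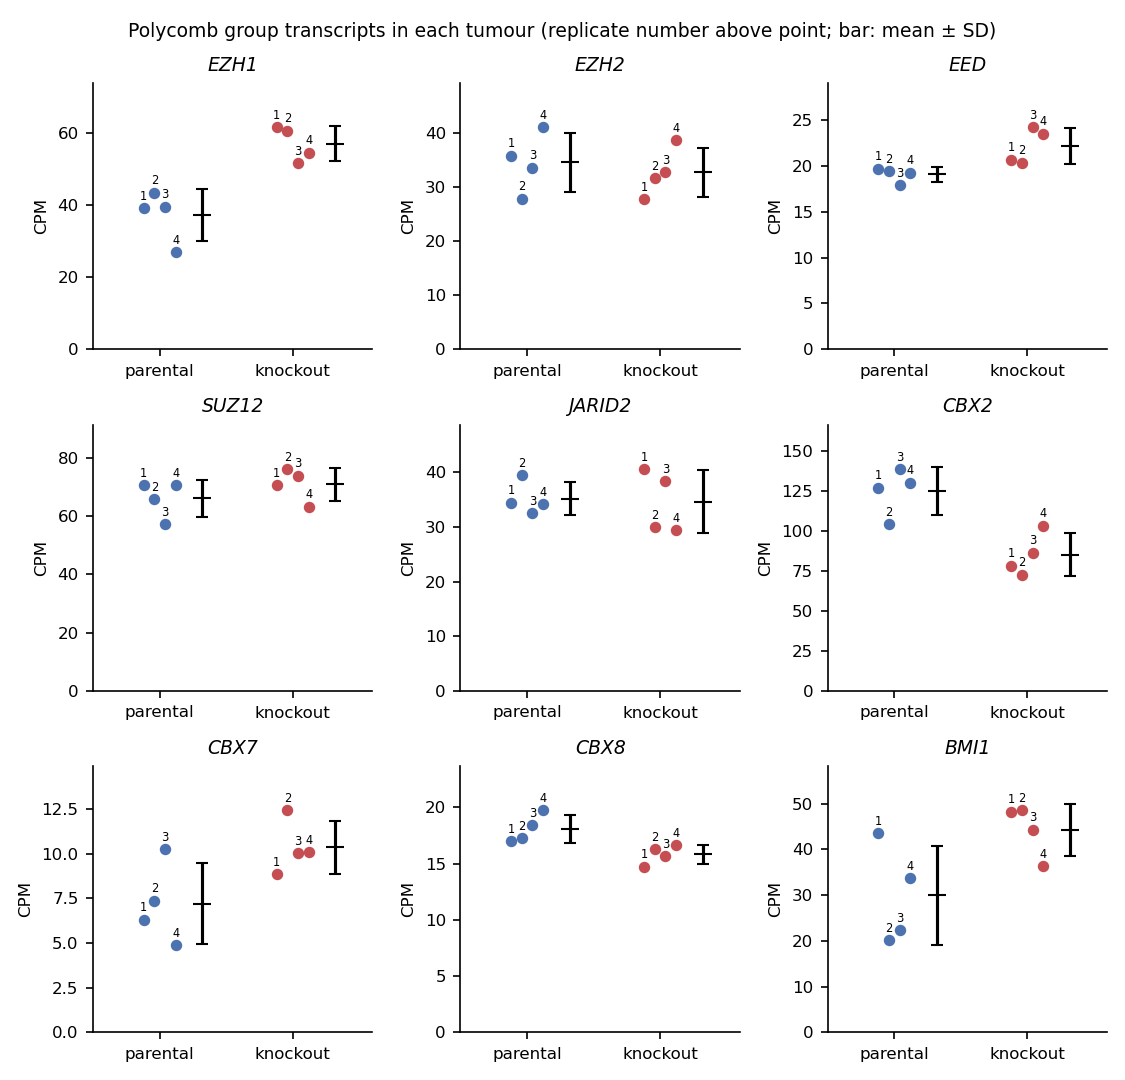
Level of each Polycomb transcript (CPM, vertical axis from 0) in the 4 parental tumours (blue) and the 4 knockout tumours (red), with replicate numbers above the points and bars for mean ± SD. EZH1 lies at 51.5 to 61.4 CPM in knockout against 26.8 to 43.4 CPM in parental tumours and CBX2 at 72.6 to 103 against 104 to 139 CPM, while EZH2, SUZ12 and JARID2 overlap.

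EZH1 and EZH2 encode the alternative catalytic subunits of PRC2. EZH2 is the more active methyltransferase and is usually high in dividing cells, while EZH1 is less active and is typical of tissues with little division. EZH1 (ENSG00000108799, chromosome 17, 42700275 to 42745049, minus strand, GENCODE 29 on GRCh38) was at 39.0, 43.4, 39.5 and 26.8 CPM in parental replicates 1 to 4 and at 61.4, 60.6, 51.5 and 54.4 CPM in knockout replicates 1 to 4. The groups did not overlap, and parental replicate 4 was the lowest of all tumours. EZH1 rose 1.53-fold, from 37.2 ± 7.17 to 57.0 ± 4.81 CPM (SD, n = 4 each; log2 fold change 0.62, SE 0.137, edgeR adjusted p = 0.00637). The call held in every alternative fit, including those that left out 1 tumour, where the log2 fold change ran from 0.48 to 0.70.

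EZH2 (ENSG00000106462, chromosome 7, 148807383 to 148884321, minus strand) was at 35.7, 27.8, 33.5 and 40.9 CPM in parental and at 27.8, 31.5, 32.7 and 38.6 CPM in knockout replicates 1 to 4. The groups overlapped over most of their range. The log2 fold change was -0.08 (edgeR adjusted p = 0.700), with an unadjusted 95% interval of -0.37 to 0.21. A change of either sign within that interval is compatible with these values. A list of 30 proliferation genes, chosen from textbook knowledge, summed to 2374, 1881, 1835 and 2959 CPM in parental and to 1830, 1977, 2243 and 2425 CPM in knockout replicates 1 to 4. Parental replicate 4 had the highest sum and the highest EZH2 level, and within each group the tumour with the highest sum was also the one with the highest EZH2 level. The part of proliferation in these levels was not tested. Of the 30 proliferation genes, 1 was called higher, CCNE1 (cyclin E1, 0.77 on the log2 scale, edgeR adjusted p = 0.0143), and 1 lower, the replication licensing gene CDT1 (-0.40, adjusted p = 0.0429), which is 6.67% against 27.04% of all genes. The CDT1 call was lost in most fits that left out 1 tumour.

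To compare the pair within each library, where scaling cancels, the ratio of EZH2 to EZH1 counts was taken. It was 0.915, 0.642, 0.849 and 1.53 in parental and 0.452, 0.521, 0.635 and 0.710 in knockout replicates 1 to 4. All knockout ratios were under 1, but parental replicate 2 lay inside their range. The difference of the mean log2 ratios, knockout minus parental, was -0.71 (exact two-sided permutation p = 0.0571, also 0.0571 after Benjamini-Hochberg adjustment over 4 ratios), which does not pass 0.05. Per kilobase of exon, EZH1 made up 29.8% to 50.2% of the EZH1 and EZH2 counts in parental and 47.7% to 58.9% in knockout tumours.

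The sequences before the start sites of this pair are shown because EZH1 was called and its paralog EZH2 was not, although their ratio did not pass 0.05. The RefSeq promoter table (GRCh38.p14) held windows for 7 of the 9 genes, and the 250 bases before the RefSeq start are given 5′ to 3′ on the gene's own strand, at chr17:42745041-42745290 (minus strand) for EZH1 and chr7:148884292-148884541 (minus strand) for the first of 2 EZH2 windows, with capitals for matches to GGGCGG, the core of SP and KLF factor sites, on either strand.
EZH1: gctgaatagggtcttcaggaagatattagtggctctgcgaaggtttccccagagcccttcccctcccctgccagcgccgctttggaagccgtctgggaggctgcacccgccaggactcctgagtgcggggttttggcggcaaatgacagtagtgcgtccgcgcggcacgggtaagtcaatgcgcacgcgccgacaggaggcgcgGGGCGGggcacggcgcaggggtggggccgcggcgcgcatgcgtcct
EZH2: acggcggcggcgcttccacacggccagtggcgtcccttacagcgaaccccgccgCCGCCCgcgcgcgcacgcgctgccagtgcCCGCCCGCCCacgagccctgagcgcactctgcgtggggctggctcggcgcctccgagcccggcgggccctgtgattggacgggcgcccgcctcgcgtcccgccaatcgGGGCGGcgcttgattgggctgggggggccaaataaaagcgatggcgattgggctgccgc
Both windows are rich in G and C, at 67.6% for EZH1 and 75.6% for EZH2, against a median of 58.0% over all 35116 windows of this length. EZH1 has 1 match to GGGCGG, the EZH2 window shown has 4, and the second EZH2 window has 1. Of all windows, 42.6% hold at least 1. Neither of the windows shown holds TGANTCA (AP-1), GCGGGAA (E2F) or CACGTG (E-box) on either strand, which occur in 6.57%, 5.52% and 6.35% of all windows. The last bases of both windows shown lie inside the GENCODE 29 gene bounds of their genes, which start further upstream than the RefSeq starts. A match is a description of letters only.

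EED, SUZ12 and JARID2 complete the PRC2 genes of the set. EED binds the methylated histone tail and stimulates the enzyme, SUZ12 holds the complex together, and JARID2 is an accessory subunit that helps to recruit it. EED (ENSG00000074266, chromosome 11, 86244544 to 86278813, plus strand) was at 19.7, 19.4, 17.9 and 19.3 CPM in parental and at 20.7, 20.3, 24.2 and 23.5 CPM in knockout replicates 1 to 4. Its groups did not overlap, by a small margin, and its log2 fold change of 0.22 did not pass the test (unadjusted 95% interval 0.00681 to 0.429, edgeR adjusted p = 0.120). EED was the most even of the 9 genes among parental tumours, with a coefficient of variation of 4.27%.

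SUZ12 (ENSG00000178691, chromosome 17, 31937018 to 32001045, plus strand) was at 70.6, 65.9, 57.3 and 70.7 CPM in parental and at 70.6, 76.2, 73.9 and 63.3 CPM in knockout replicates 1 to 4. The groups overlapped, and the log2 fold change was 0.10 (interval -0.11 to 0.31, adjusted p = 0.465 by edgeR). JARID2 (ENSG00000008083, chromosome 6, 15246296 to 15522040, plus strand) was at 34.4, 39.5, 32.6 and 34.2 CPM in parental and at 40.6, 29.9, 38.4 and 29.5 CPM in knockout replicates 1 to 4. Knockout replicates 1 and 3 were near the highest parental tumour and knockout replicates 2 and 4 were below every parental tumour, so the knockout values spanned the parental ones. Its log2 fold change was -0.02 (interval -0.29 to 0.25, edgeR adjusted p = 0.908), and its sign turned in several alternative fits.

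**Figure D2:**
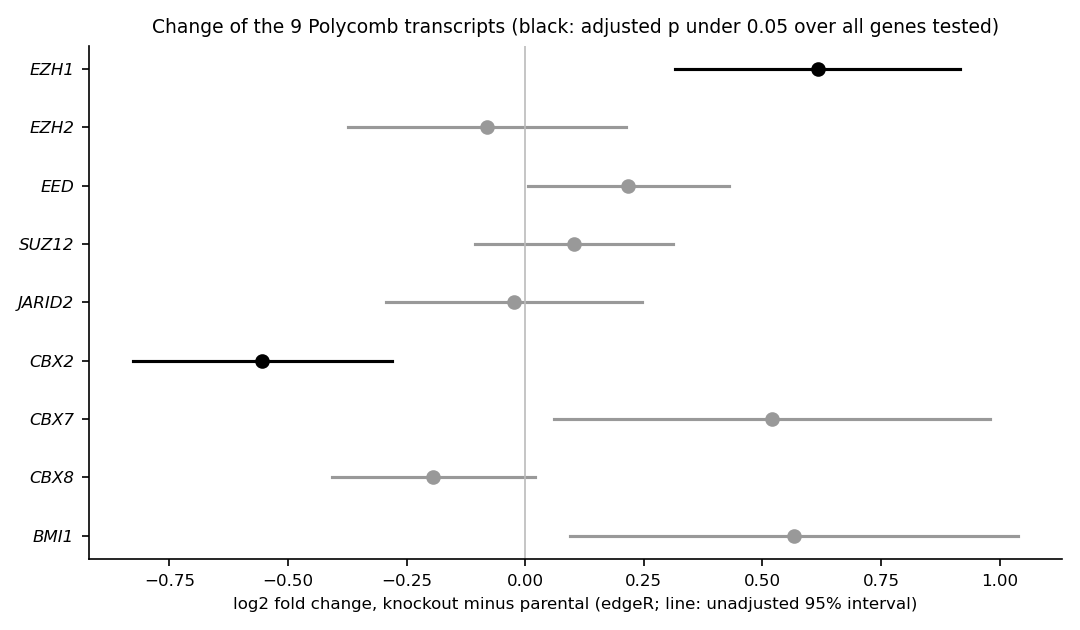
Log2 fold change of each of the 9 genes, knockout minus parental, from edgeR (horizontal axis), with unadjusted 95% intervals as lines; black marks an adjusted p under 0.05 over all genes tested. EZH1 at 0.62 and CBX2 at -0.55 are black, and the unadjusted intervals of EED, CBX7 (0.06 to 0.98) and BMI1 (0.09 to 1.04) exclude 0 although their adjusted p-values do not pass.

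CBX2, CBX7 and CBX8 are chromobox proteins of canonical PRC1. Each can take the same place in the complex, where its chromodomain reads the histone mark made by PRC2, and CBX2 also compacts nucleosomes. CBX2 (ENSG00000173894, chromosome 17, 79778132 to 79787983, plus strand) was at 127, 104, 139 and 130 CPM in parental and at 78.2, 72.6, 86.4 and 103 CPM in knockout replicates 1 to 4. The groups did not overlap, although knockout replicate 4 came within 1 CPM of parental replicate 2. CBX2 fell 1.47-fold, from 125 ± 14.8 to 85.1 ± 13.3 CPM (SD, n = 4 each; log2 fold change -0.55, SE 0.124, edgeR adjusted p = 0.00662). Leaving out 1 tumour gave -0.66 to -0.48 with the call kept each time.

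CBX8 (ENSG00000141570, chromosome 17, 79792132 to 79801683, minus strand) lies beside CBX2, in the opposite orientation and 4148 bases from its end. It was at 17.0, 17.3, 18.4 and 19.7 CPM in parental and at 14.7, 16.3, 15.7 and 16.7 CPM in knockout replicates 1 to 4. All knockout values were under all parental values, by a narrow margin, but the log2 fold change of -0.19 did not pass the test (interval -0.41 to 0.02, edgeR adjusted p = 0.170).

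CBX7 (ENSG00000100307, chromosome 22, 39120167 to 39152674, minus strand), the chromobox protein that is typical of stem cells and of many normal tissues, had the fewest reads of the set. It was at 6.32, 7.37, 10.3 and 4.89 CPM in parental and at 8.88, 12.4, 10.0 and 10.1 CPM in knockout replicates 1 to 4. Parental replicate 3 lay inside the knockout range and the other 3 parental tumours below it. The log2 fold change was 0.52 (interval 0.06 to 0.98, edgeR adjusted p = 0.0895), and without parental replicate 3 it was 0.74 (adjusted p = 0.0130 by edgeR), past the threshold. An antisense gene, AL031846.2, overlaps 17.9% of the CBX7 exon bases, and it had 0 to 5 counts in a library. The strand setting of the counting is not given in the sources used here, so reads of the pair may not be separable.

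The chromobox genes were also set against each other within each library. The ratio of CBX2 to CBX7 counts was 19.9, 14.0, 13.4 and 26.4 in parental and 8.76, 5.82, 8.57 and 10.2 in knockout replicates 1 to 4, with no overlap. The mean log2 difference was -1.12, at the smallest exact two-sided permutation p that 4 against 4 allows (0.0286, and 0.0571 after adjustment over the 4 ratios). For CBX8 to CBX7 the ratios were 2.67, 2.34, 1.79 and 4.01 against 1.65, 1.31, 1.56 and 1.65, also without overlap, a difference of -0.75 with the same exact permutation p-values. Neither ratio passes 0.05 after adjustment, and the same CBX7 counts enter both.

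**Figure D3:**
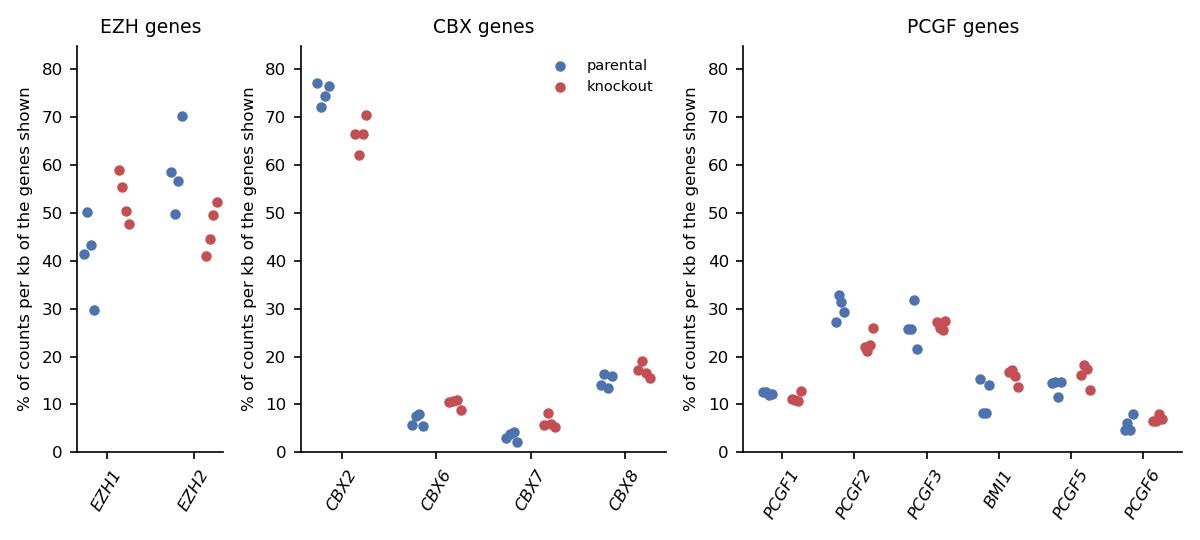
Share of each gene in the summed counts per kilobase of exon of the genes in its panel (percent, vertical axis), for EZH, CBX and PCGF genes, with 1 point for each parental (blue) or knockout (red) tumour. CBX2 holds 72.1% to 77.2% of the counts of the 4 CBX genes shown in parental and 62.2% to 70.4% in knockout tumours, and CBX7 holds 2.19% to 4.199% and 5.24% to 8.11%.

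As a share of the 4 Polycomb CBX genes CBX2, CBX6, CBX7 and CBX8, counted per kilobase of exon, CBX2 was at 75.1% ± 2.34 (SD, n = 4) in the parental group and at 66.4% ± 3.38 (SD, n = 4) in the knockout group. CBX6 was at 6.69% ± 1.32 and 10.3% ± 0.993, CBX7 at 3.30% ± 0.917 and 6.25% ± 1.27, and CBX8 at 14.95% ± 1.37 and 17.0% ± 1.48 (SD, n = 4 each). CBX2 was the leading transcript of these 4 in every tumour, and its share was lower in every knockout tumour than in any parental tumour. These shares add to a whole, so a lower share of CBX2 raises the others, and they were not tested.

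BMI1, also called PCGF4, is the PCGF subunit that defines one form of canonical PRC1 and is known as a repressor of the CDKN2A locus. BMI1 (ENSG00000168283, chromosome 10, 22321211 to 22331484, plus strand) was at 43.6, 20.2, 22.3 and 33.7 CPM in parental and at 48.2, 48.5, 44.3 and 36.3 CPM in knockout replicates 1 to 4. Parental tumours fell into a lower pair, replicates 2 and 3, and a higher pair, replicates 1 and 4, of which replicate 1 lay within the knockout range. The log2 fold change of 0.57 had an adjusted p of 0.0734 by edgeR (interval 0.09 to 1.04), and it passed the threshold by limma-voom (adjusted p = 0.0474), with upper-quartile scaling (0.0497), with no filter on low counts (0.0236) and without parental replicate 1 (0.0111, log2 fold change 0.79). Whether BMI1 is called therefore depended on these choices.

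A list of 14 leukocyte and macrophage markers, none at 0 over all libraries, summed to 29.4, 190, 166 and 14.7 CPM in parental and to 46.4, 48.5, 35.7 and 22.1 CPM in knockout replicates 1 to 4. Most of the sum in parental replicates 2 and 3 came from CD74 and LYZ, which are not limited to leukocytes. Parental replicates 2 and 3, with the lowest BMI1, had the highest sums, and parental replicate 4, with the lowest EZH1 and CBX7, had the lowest sum. The knockout tumours did not follow this order. Among them replicate 4 had both the lowest BMI1 and the lowest sum, and replicate 2 had the highest of both. The lowest knockout values of EZH1 and CBX7 were in replicates 3 and 1. Which cells these reads came from, and their part in the levels, was not tested, and in bulk tumours a change in the make-up of cells cannot be told apart from a change in RNA per cell. Of the 10 leukocyte markers tested, 0 were called by edgeR, DESeq2 or limma-voom, and 1 had an unadjusted p under 0.05.

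BMI1 overlaps the readthrough gene COMMD3-BMI1 over 23.3% of its exon bases. That gene was listed at 0 counts in all 8 libraries. Reads in bases that it shares with another gene would be counted for neither, so this 0 does not show that readthrough was absent. Its overlap with COMMD3 was not measured. COMMD3 (ENSG00000148444, chromosome 10, 22315974 to 22320308, plus strand), the gene just before BMI1 on the same strand, was at 10.1, 8.93, 9.91 and 7.95 CPM in parental and at 19.6, 19.0, 17.0 and 21.1 CPM in knockout replicates 1 to 4. The groups were far apart, and COMMD3, which encodes a protein of endosomal sorting, rose 2.08-fold (log2 fold change 1.06, SE 0.118, edgeR adjusted p = 6.85e-05). Reads that matched more than 1 gene were 3.98% to 4.31% of the aligned entries of each library and were counted for none. Their part in the BMI1 and COMMD3 values was not tested.

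PCGF2, also called MEL18, is the closest paralog of BMI1 and fell 1.23-fold (log2 fold change -0.30, SE 0.0876, edgeR adjusted p = 0.0246), a call lost in several alternative fits. The ratio of BMI1 to PCGF2 counts was 0.687, 0.304, 0.322 and 0.590 in parental and 0.930, 0.989, 0.876 and 0.643 in knockout replicates 1 to 4. PCGF2 counts exceeded BMI1 counts in every tumour. The mean log2 ratio differed by 0.93 between the groups, with overlap at parental replicate 1 (exact two-sided permutation p = 0.0571, and 0.0571 after adjustment over the 4 ratios). Per kilobase of exon, BMI1 made up 8.17% to 15.3% of the 6 PCGF genes in parental and 13.7% to 17.1% in knockout tumours.

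Per kilobase of exon, CBX2 had the highest level of the 9 genes in both groups, at 22.0 ± 2.60 CPM per kb for the parental group and 14.96 ± 2.35 for the knockout group (SD, n = 4). CBX7 had the lowest level, at 0.967 ± 0.305 and 1.39 ± 0.200 CPM per kb. In parental tumours the levels after CBX2 fell in the order SUZ12, EZH2, BMI1, JARID2, EZH1, CBX8, EED and CBX7, and the ranges of each gene and the next overlapped from SUZ12 down to CBX8. In knockout tumours the order after CBX2 was SUZ12, BMI1, EZH1, EZH2, JARID2, CBX8, EED and CBX7, with such overlaps from SUZ12 down to JARID2. Exon lengths were taken from GENCODE 29 and the annotation behind the counts is not given in the sources used here, so the order rests on those gene models.

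The rest of the Polycomb machinery was examined through 3 lists, of which 49 genes were tested, and 5 of them (10.2%) were called against 27.04% of all genes. Their median log2 fold change was -0.05. Among other PRC2 subunits 0 of 9 were called by edgeR, with estimates from -0.34 for LCOR to 0.28 for PHF1, 7 of the 9 being negative. DESeq2 and limma-voom also called 0 of these 9, and 1, LCOR, had an unadjusted p under 0.05 by edgeR. The histone-binding subunit RBBP4 was at 189 ± 12.3 CPM in the parental group and 171 ± 7.25 CPM in the knockout group (SD, n = 4 each). Of the genes of the BAP1 deubiquitinase complex, which removes the PRC1 mark from histone H2A, and of the H3K27 demethylases, 0 of 12 were called by edgeR, DESeq2 or limma-voom, and 0 had an unadjusted p under 0.05. The demethylase KDM6A had a log2 fold change of -0.13 and KDM6B of -0.03.

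Among 28 other PRC1 genes, 4 were lower and 1 was higher in knockout tumours, which is 17.9% of them against 27.04% of all genes tested. Over all genes tested, 14.1% were called lower and 13.0% higher. AUTS2 (ENSG00000158321, chromosome 7, 69598296 to 70793495, plus strand), a subunit of PRC1 variants with PCGF3 or PCGF5 that is known for activating transcription in neurons, had the largest fold change of these 5. It was at 39.9, 45.0, 41.9 and 41.5 CPM in parental and at 8.74, 9.41, 11.9 and 6.54 CPM in knockout replicates 1 to 4. The groups were far apart, and AUTS2 fell 4.61-fold (log2 fold change -2.20, SE 0.153, edgeR adjusted p = 2.91e-06), with -2.35 to -2.07 on the log2 scale when 1 tumour was left out. Its partners PCGF3 (0.10) and PCGF5 (0.34) had log2 fold changes that were not called (edgeR adjusted p = 0.627 and 0.0792).

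KDM2B, which brings variant PRC1 with PCGF1 to unmethylated CpG islands, was at 40.4, 40.1, 46.8 and 45.9 CPM in parental and at 34.8, 32.4, 35.5 and 32.1 CPM in knockout replicates 1 to 4. It fell 1.29-fold with no overlap (log2 fold change -0.36, SE 0.0884, edgeR adjusted p = 0.0104). BCORL1, a corepressor that can join the same variant, fell 1.47-fold (log2 fold change -0.55, SE 0.156, edgeR adjusted p = 0.0221), a call lost without knockout replicate 2, 3 or 4 (adjusted p = 0.0574 to 0.0609). Its paralog BCOR had an estimate of 0.26 (adjusted p = 0.0867 by edgeR) and PCGF1 of -0.02. SCML2, a PRC1-associated protein best known from the germ line, rose 2.24-fold from few reads, with 0.537 to 1.66 CPM in the parental and 2.24 to 2.75 CPM in the knockout group (log2 fold change 1.16, SE 0.333, edgeR adjusted p = 0.0235). The SCML2 call was lost without parental replicate 3 or knockout replicate 1 or 3 (adjusted p = 0.0575 to 0.0637). The catalytic PRC1 subunits RING1 (0.13) and RNF2 (0.07) were not called (edgeR adjusted p = 0.389 and 0.706). Leaving out 1 tumour gave 2 called genes in this list without knockout replicate 3, 3 without knockout replicate 1 or 2, and 9 without parental replicate 4.

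**Figure D4:**
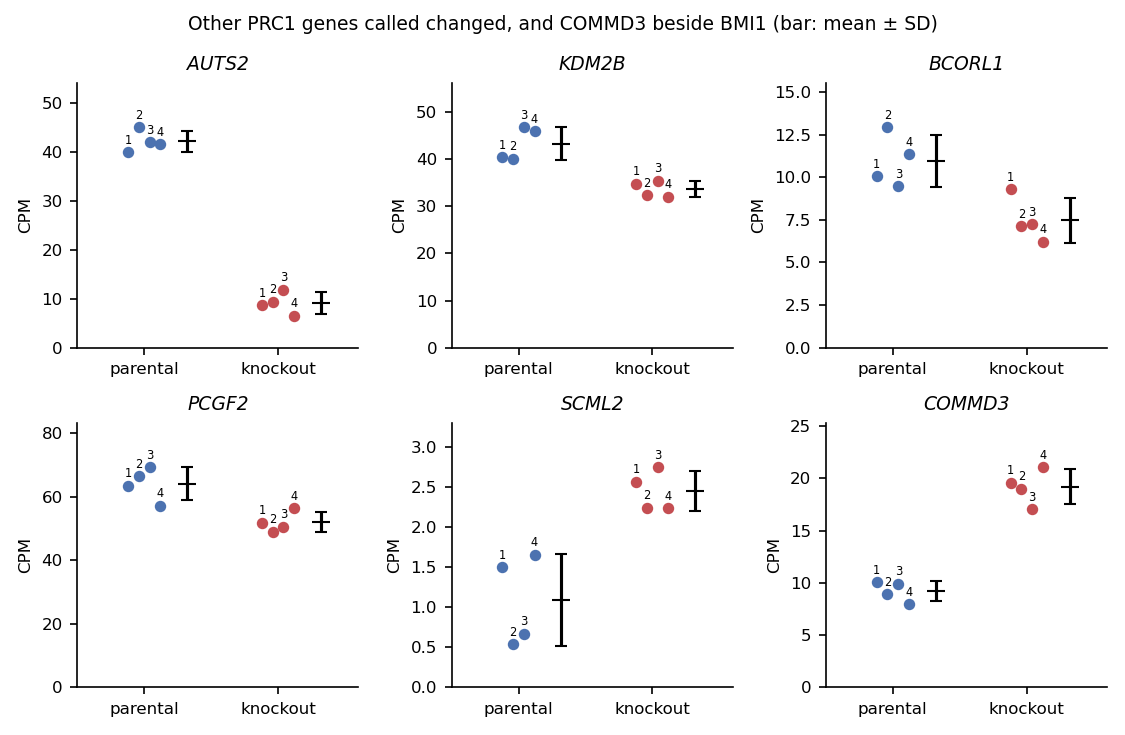
Level (CPM, vertical axis from 0) in each parental (blue) and knockout (red) tumour of the 5 other PRC1 genes that were called, and of COMMD3, the neighbour of BMI1; bars show mean ± SD. AUTS2 lies at 39.9 to 45.0 CPM in the parental and 6.54 to 11.9 CPM in the knockout group.

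Genes known from many cell types as Polycomb targets were taken from a list of 52 developmental regulators and growth inhibitors. Whether they carry the mark in H2122 was not measured. Of these, 22 had enough reads to be tested and 30 did not, of which 9 had 0 counts in each library, a result that up to 3 counts over the 8 could give, and 10 had 1 to 3 counts in all. Among the 22 tested, 4 were higher and 5 lower without SMARCA4, so the calls went both ways, and the median log2 fold change was 0.06. The 9 calls are 40.9% of those tested, against 27.04% of all genes. This list was chosen with earlier results of these data known, so the higher share cannot be read as a result about Polycomb targets. DESeq2 called 10 of the 22.

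The 4 that rose were FOXC1, TIMP2, IGFBP3 and SLIT2. FOXC1, a forkhead transcription factor, rose 2.59-fold, with 27.1 to 38.7 CPM in the parental and 85.3 to 95.4 CPM in the knockout group (log2 fold change 1.37, edgeR adjusted p = 7.41e-06). TIMP2, a metalloproteinase inhibitor, rose 2.23-fold, IGFBP3, which binds insulin-like growth factors, 2.23-fold, and SLIT2, a guidance ligand, 1.98-fold (edgeR adjusted p = 0.000413, 0.00250 and 0.00424). For IGFBP3, knockout replicate 4 was at 642 CPM and the other knockout tumours at 1087 to 1175 CPM. Of the genes that fell, WNT5A, a ligand of non-canonical Wnt signalling, changed most, at 78.6, 33.9, 111 and 147 CPM in parental and at 6.77, 8.68, 9.29 and 7.70 CPM in knockout replicates 1 to 4. Its parental values varied over several fold but all lay above the knockout values (log2 fold change -3.51, SE 0.373, edgeR adjusted p = 4.74e-05). The transcription factor gene PAX9 fell 5.41-fold, and the N-cadherin gene CDH2 fell 2.95-fold (edgeR adjusted p = 1.82e-06 and 0.000180). The cell cycle inhibitor gene CDKN1C was at 19.7 to 33.2 CPM in the parental and 9.90 to 19.3 CPM in the knockout group, with no overlap (edgeR adjusted p = 0.00405). The last call, named after its values were seen, was the homeobox gene MEIS1, at 10.0 to 13.0 against 8.24 to 9.91 CPM (edgeR adjusted p = 0.0339). CDKN2A, the locus that BMI1 is known to repress, had 7 counts over the parental and 5 over the knockout libraries and was not tested.

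**Figure D5:**
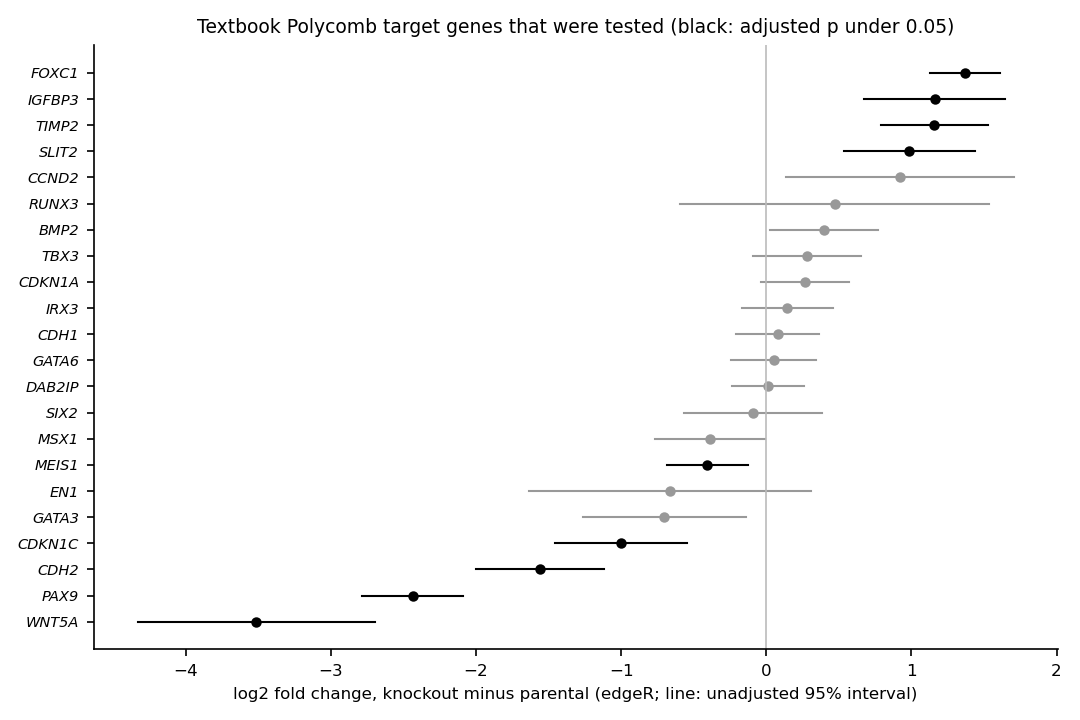
Log2 fold change, knockout minus parental, of the 22 textbook Polycomb target genes that were tested (edgeR, horizontal axis), with unadjusted 95% intervals; black marks an adjusted p under 0.05. The calls run from -3.51 for WNT5A to 1.37 for FOXC1, with 5 below and 4 above 0.

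SWI/SNF subunits other than SMARCA4 were set beside these genes. Of 25 tested, 2 were higher and 5 lower, which is 28.0% against 27.04% of all genes. SMARCA2, the paralog of SMARCA4, was at 47.5, 53.0, 45.2 and 41.3 CPM in parental and at 58.1, 62.5, 58.7 and 54.2 CPM in knockout replicates 1 to 4 (log2 fold change 0.32), and PHF10, of the PBAF form, also rose (0.37). The 4 genes lower with the smallest p were SMARCD2 (-0.47), DPF2 (-0.51), SMARCC1 (-0.39) and ACTL6A (-0.41). The SMARCA2 call was lost in all fits that left out 1 tumour except those without parental replicate 2 or knockout replicate 4 (adjusted p up to 0.0789 by edgeR). The ACTL6A call was lost in most such fits, and the SMARCC1 call without knockout replicate 1. Leaving out 1 tumour gave 3 to 6 called genes in this list, with 4 without parental replicate 1 or 4 and 3 without knockout replicate 1.

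Genes whose profiles over the 8 tumours were most like those of EZH1 and CBX2 were found by the root mean square difference of log2 CPM, after each gene was centred on its parental mean. The 13052 genes compared had at least 1 as their average log2 CPM. The 3 nearest to EZH1 were CYTH1, EFNB2 and ANKRD9, at differences of 0.0850, 0.0938 and 0.0943, against a median of 0.543 over all genes compared. Each shared the low value of EZH1 in parental replicate 4. The 3 nearest to CBX2 were SMAGP, PSENEN and GPAA1, at 0.0632, 0.0741 and 0.0761, against a median of 0.480. Like CBX2, each had its highest knockout value in replicate 4 and its lowest parental value in replicate 2. For both members the genes were picked for likeness over these same values. The small differences and shared highs and lows therefore follow from the choice.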

How the data were processed

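RNA from 4 parental and 4 SMARCA4 knockout H2122 xenografts was compared, grouped by the sample titles. Each tumour has 1 deposited file of raw counts for gene symbols, made with TopHat2 2.1.1 and HTSeq 0.11.0 on hg38 per the submitters' processing notes. The annotation, the strand setting and any removal of mouse reads are not given in the sources used here, so host reads may be counted as human. The 5 summary lines of each file were left out. Of all aligned entries counted, those lines included, 79.1% to 85.2% were assigned to a gene. Unaligned reads take no part in this share. All pairs of libraries differed by more than sampling noise. The counts were fitted with edgeR 4.0.16 (R 4.3.3): filterByExpr with a minimum count of 10 and a total of 15, TMM scaling, the quasi-likelihood test with no covariate, and Benjamini-Hochberg adjustment over 16219 genes, called at 0.05. The SE was derived from the F statistic. Ratios of counts, with 1 added, were compared by exact permutation. Alternatives were DESeq2 1.42.0, limma-voom (limma 3.58.1), other scalings and filters, a replicate block and leaving out each tumour. The fit was tested on simulated data in which the changed genes had larger changes than EZH1 and CBX2. It therefore does not show how often changes of their size are called. The members and lists were chosen with earlier results of these data known. Named genes were the members, SMARCA4, genes overlapping or reading through into a member, every called gene of the 3 machinery lists, the 4 called genes with the smallest p in each direction of the other lists, and the 3 nearest profiles. Some genes of the lists are not reported here. Genes named with uncalled values beside these were chosen for their known role. Further marker lists, for fibroblasts (182.9 to 613 CPM summed), endothelial cells (7.51 to 18.4), skeletal muscle (0.146 to 34.8) and erythroid cells (0 to 0.187), had overlapping ranges in the groups.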

Additional observations from a re-analysis of the deposited data

Results flagged for a closer look

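In 84 sets of 4 values, for the genes named by the rule and the 4 ratios, 4 sets had 1 tumour far from the other 3, close to the 5% that chance gives, and none of the 9 Polycomb genes was among them. IGFBP3 was at 642 CPM in knockout replicate 4, against 1087 to 1175 CPM in the other knockout tumours. PHF10 was at 92.0 CPM in knockout replicate 2, against 78.0 to 80.0 CPM. SMARCD2 was at 140.9 CPM in parental replicate 1, against 121.7 to 124.8 CPM in the other parental tumours. EFNB2 was at 126.6 CPM in knockout replicate 3, against 149 to 152 CPM.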

How the results depend on the processing

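The number of genes called ran from 3501 to 5028 over all alternatives, and of the 9 Polycomb genes 2 or 3 were called, EZH1 and CBX2 each time. The sign of JARID2 turned with upper-quartile scaling (0.011), and leaving out 1 tumour gave -0.11 to 0.05 for JARID2 (positive without parental replicate 2, 0.04, without knockout replicate 2, 0.04, and without knockout replicate 4, 0.049) and -0.17 to 0.01 for EZH2 (0.0063 without parental replicate 4). CBX7 ran from 0.36 to 0.74, the latter a call. BMI1 was called by limma-voom (0.63), with upper-quartile scaling (0.61) and with no filter on low counts (0.54), and took values of 0.42 to 0.79 on leaving out single tumours. Over the 6 gene lists of Polycomb and related genes, 15 genes were called lower, and 9 to 19 when 1 tumour was left out, with 9 without knockout replicate 3. The proliferation list had 2 called genes, 1 to 6 when 1 tumour was left out (6 without parental replicate 2), 1 by limma-voom or with upper-quartile scaling, and 4 with no filter. The causes were not tested. With the replicate number as a block, 3871 genes were called, EZH1 and CBX2 remained called, and PCGF2 was lost (adjusted p = 0.0658 by edgeR). Same-numbered tumours did not deviate together (correlations of -0.28 to 0.12 across genes) and 0 of 4 correlated best with their own number, so the numbers were not used as pairs. The paired exact test of the ratios cannot go below 0.125 and says nothing about stability.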

Other observations

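Of the genes in the 6 marker lists, edgeR called 4, namely 2 markers of other cell types and 2 epithelial markers, picked out for naming after their values were seen. By list, 2 of 8 epithelial markers tested were called (25%), 0 of 10 leukocyte, 1 of 6 fibroblast (16.7%) and 1 of 2 endothelial markers. Among all genes tested the share was 27.04%. No skeletal muscle or erythroid marker was tested. LUM, which encodes the matrix proteoglycan lumican and was listed as a fibroblast marker, rose from a parental range of 0.104 to 0.638 CPM to a knockout range of 10.1 to 15.5 CPM (log2 fold change 5.00, edgeR adjusted p = 1.98e-06), while the other 5 fibroblast markers tested were not called. VWF, the endothelial gene for von Willebrand factor, fell from a parental range of 1.27 to 3.08 CPM to a knockout range of 0.280 to 0.439 CPM (log2 fold change -2.37, edgeR adjusted p = 0.000410). Only 2 of the 8 endothelial markers were tested. The other had a log2 fold change of 0.30 and was not called. The epithelial keratin genes KRT19 (929 to 1273 against 454 to 572 CPM, log2 fold change -1.01, edgeR adjusted p = 8.49e-05) and KRT7 (1584 to 1802 against 851 to 1097 CPM, log2 fold change -0.71, edgeR adjusted p = 0.000333) fell with no overlap between the groups. The keratin genes KRT8 (0.16) and KRT18 (0.11) of the same list had estimates above 0 and were not called. Of the 8 epithelial markers tested, 5 had estimates above 0, with a median log2 fold change of 0.05.

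NKX2-2, a homeobox gene of the Polycomb target list that was under the filter on low counts and was also picked out after its values were seen, had parental counts of 8, 1, 30 and 20 and 0 counts in every knockout library. With 3 counts over the knockout group set in place of 0, its pooled level was 19.4-fold lower without SMARCA4. This value is not a firm bound, because the spread between parental tumours, from 1 to 30 counts, does not enter it. It takes the parental sum as it stands, and without parental replicate 3, a choice made after seeing the data, the value was 12.9-fold.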
